A study of Mus musculus with 4 samples.

Results

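Some promoter regions of mouse embryonic stem cells had a raised signal in a p53 precipitation without treatment and a higher one with adriamycin. These strengthened basal sites were chosen by their array values in both conditions. The measure was the log2 ratio of precipitated (IP) over input DNA, centred on the median of each array, and probes were taken in windows of 3 neighbours spanning at most 1000 bp. With adriamycin, a window was called from a mean of 1.8 upwards, provided that 2 or 3 of its probes also reached 1.8, and called windows within 500 bp of each other were merged into a region. Each region was represented by its best window, the called window whose mean over the untreated and adriamycin arrays was highest. A region counted as strengthened when its best window was at 1 or more untreated (2-fold over the array median) and higher by 1 or more with adriamycin. Of the 2543 regions called with adriamycin, 335 (13.2%) met the rule. They comprised 172 of 1206 regions on array design 1 (14.3%) and 163 of 1337 on design 2 (12.2%). Without the limit on the untreated value, 637 of the 2543 (25.0%) were higher by 1 or more. These shares are set by the rule and are descriptions.

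The samples were from 1 mouse embryonic stem cell line, R1E, kept for 8 h in growth medium with 1000 units/ml of leukaemia inhibitory factor, the cytokine that holds such cells undifferentiated. One culture condition was untreated and the other held 0.5 µM adriamycin. Cells were fixed with 1% formaldehyde for 10 min, p53 with its DNA was pulled down with 10 µg of antibody M19, and both IP and input DNA went through ligation-mediated PCR. Input carried Cy3 and IP DNA Cy5. The promoters were spread over 2 array designs with different chromosomes, and 1 array of each design was used per condition, 4 arrays in all. With 1 array per condition and design there was no test, no p-value and no replicate check, and array and treatment cannot be told apart. Dyes were not swapped, and no mock precipitation was analysed here.

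p53 is a transcription factor that binds DNA as a tetramer. In unstressed cells it is kept low by the ubiquitin ligase Mdm2, and DNA damage stabilises it. Adriamycin, also called doxorubicin, breaks DNA by trapping topoisomerase II. p53 is best known for turning on genes of cell cycle arrest, repair and apoptosis, and in embryonic stem cells it has also been studied for its effect on genes of self-renewal and differentiation. A binding site appears on a tiling array as a narrow peak, because the sonicated fragments that carry the site reach beyond it on both sides. The probe annotation used here names positions and no genes, on a genome build not given in the sources used here. Regions are therefore named by chromosome, start and end as the files give them. Their genes and sequences were not analysed here.

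Each array was summarised over 236817 (design 1) or 236686 (design 2) probes. Median background-subtracted IP signals, before dye scaling, were low, from 24.5 to 65 intensity units, over local IP backgrounds of 51 to 54. The log ratios of the untreated arrays spread more, with SDs of 1.06 and 1.08 against 0.94 and 0.91 with adriamycin. Noise estimated from neighbouring probes gave an error of 0.52 (design 1) and 0.48 (design 2) for a difference between 2 window means. Differences closer than this to the limit of 1 cannot be placed firmly on either side of it. The error comes from probes within arrays and leaves out variation between arrays. None of the 335 best windows held a saturated spot or a spot not well above background in either channel. Negative control spots had, on the same centred scale, median log2 ratios near the untreated limit of 1. These were 1.22 (design 1) and 0.95 (design 2) untreated, and 1.26 and 0.58 with adriamycin. How much of an untreated value near 1 is p53 binding was not tested. In windows called in neither array, 15648 of 385711 (4.06%) were higher with adriamycin by at least 1. A window that meets both limits of the strengthened rule would usually be called. Few of these windows could therefore meet it, and their share is no baseline for the strengthened regions.

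**Figure D1:**
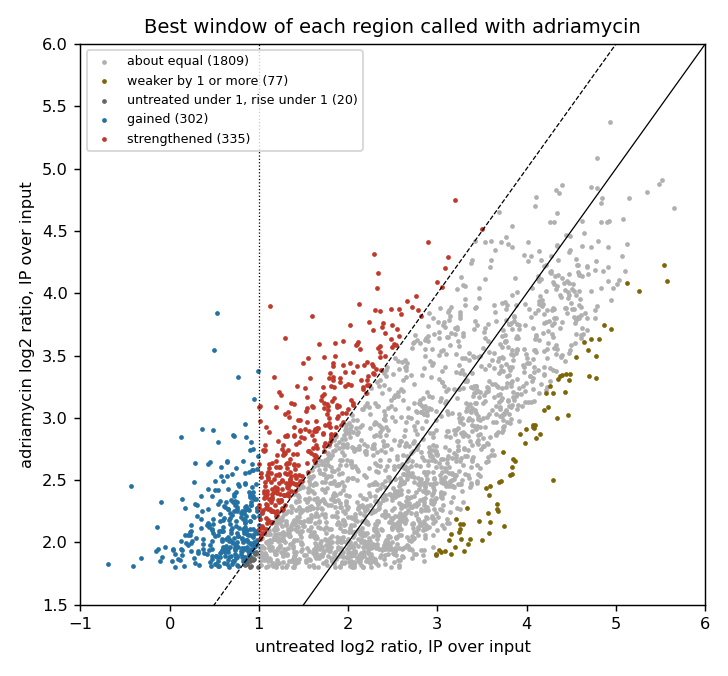
Untreated (x axis) against adriamycin (y axis) log2 ratio of IP over input at the best window of each of the 2543 regions called with adriamycin, 1 point per region; the solid line marks equal values, the dashed line a difference of 1 and the dotted line an untreated value of 1. The 335 strengthened regions fill the corner above the dashed line and right of the dotted one, mostly at untreated values under 2.

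The strengthened regions had modest ratios of p53 IP over input without adriamycin and high ratios with it. In such bulk chromatin, more cells with p53 at a site and more p53 per cell cannot be told apart. Their untreated log2 ratios ran from 1.00 to 3.50 with a median of 1.46 (interquartile range over regions 1.21 to 1.86). With adriamycin they ran from 2.02 to 4.75 with a median of 2.84 (2.48 to 3.26). The differences had a median of 1.24, which is 2.36-fold, and an interquartile range of 1.1 to 1.44. Most rises were small, with 273 regions between 1 and 1.5, 55 between 1.5 and 2, and 7 at 2 or more. The range of 1 to 1.5 lies almost wholly within the noise error of the limit, 0.52 on design 1 and 0.48 on design 2. Most of the strengthened regions thus cannot be placed firmly above the limit of 1. On designs 1 and 2 the median differences were 1.24 and 1.25 and the median untreated values 1.46 and 1.45. Both sets were cut at the same limits, which largely fix this likeness, so it is no check between designs.

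All 3 probes of the best window were higher with adriamycin in 325 of the 335 regions (97.0%), in 289 of the 302 regions that rose by 1 or more from under 1 untreated (95.7%) and in 1102 of all 2543 (43.3%). A difference of at least 1 in the window mean largely fixes this count. In 139 regions all 3 untreated probes were at 1 or more, in 161 regions 2 of them, and in 35 regions only 1. By the rule that called regions with adriamycin, turned to the untreated arrays, 91 of the 335 (27.2%) were also called untreated, against 1598 of all 2543 regions (62.8%). These basal sites were thus mostly below the limit that would have called them on their own. Among regions at 1 or more untreated, 335 of 2221 (15.1%) were higher by at least 1 and 77 (3.47%) were lower by at least 1. The rule turned around, which starts from regions called untreated and asks for at least 1 with adriamycin and a fall of at least 1, found 124 of 2421 (5.12%). With the sign of the ratios turned, 3 of 124 depleted regions (2.42%) met the strengthened rule. Depleted regions were far fewer than the 2543 enriched ones, so this share is no false rate for the strengthened regions.

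How often a basal site was strengthened fell with its untreated level. Between 1 and 1.5 untreated, 175 of 368 regions (47.6%) were strengthened, between 1.5 and 2 it was 93 of 378 (24.6%), between 2 and 2.5 it was 49 of 397 (12.3%), and between 2.5 and 3 it was 13 of 370 (3.51%). Of the 708 regions at 3 or more, 5 (0.706%) were strengthened and 75 were lower by at least 1. Part of this order is built in, since a region had to reach 1.8 with adriamycin to be listed and so a low untreated value needs a rise. Over all regions of each level, strengthened or not, the median difference went from 0.98 and 0.66 to 0.07, -0.27 and -0.49. This order is partly built in too, since the untreated value sets the level and is also subtracted in the difference. Noise in that value alone lowers the difference at higher levels, and its share was not tested.

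The limits of the rule cut through a continuous range. Just inside the untreated limit were chromosome 11, 78202885 to 78203330, and chromosome 2, 164548486 to 164549582 and 32355562 to 32356450, each at 1.00 untreated. Just outside it were chromosome 5, 78340766 to 78341910, chromosome 19, 11331617 to 11332290, and chromosome 7, 18248626 to 18250111, with 0.998, 0.997 and 0.996. The last of these reached 3.38 with adriamycin. At the limit on the difference, chromosome 2, 83525710 to 83526311 and 121923272 to 121924347, and chromosome 16, 33436732 to 33437384, were inside with 1.00. Chromosome 14, 104992845 to 104993352, chromosome X, 146861501 to 146862243, and chromosome 8, 109026365 to 109026728, were outside with 0.9995, 0.9994 and 0.9992.

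The region with the greatest difference spans 180220344 to 180221675 on chromosome 2. The probes of its best window, which began at 180220914, 180221047 and 180221188, had untreated log2 ratios of 0.48, 1.41 and 1.48, and 3.56, 4.11 and 4.02 with adriamycin. Every adriamycin value lay above every untreated one, and the window mean went from 1.13 ± 0.56 to 3.90 ± 0.30 (SD over 3 probes, which are not replicates), a 6.84-fold difference. The processed IP signals of these probes rose from 5476, 3209 and 4113 to 80288, 50279 and 54251 intensity units. Their input signals also rose, from 4337, 1331 and 1628 to 7468, 3191 and 3657, so the ratio understates the change of the IP signal alone.

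The next 2 differences rested on all probes of their windows as well. On chromosome 2 from 121049944 to 121051066, the probes had 1.05, 2.02 and 0.82 untreated and 3.07, 4.06 and 3.78 with adriamycin. The mean difference was 2.35 (5.08-fold). On chromosome 5 from 148861915 to 148862753 they had 0.92, 2.10 and 1.76, and then 3.55, 4.18 and 3.71, a difference of 2.22 (4.67-fold). Here the IP signal alone rose by 1.47 on the log2 scale and the input signal fell by 0.77, so part of the ratio's rise lay in the input. In both regions the lowest adriamycin probe was above the highest untreated one.

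Some rises were nearly the same at every probe. On chromosome 7 from 98187463 to 98188311, the probes went from 1.24, 1.98 and 0.28 to 3.35, 4.06 and 2.58, and their difference of 2.16 had an SD of 0.12 over the 3 probes. The peak shape, highest at the middle probe, was kept while the whole peak moved up. On chromosome 11 from 69762477 to 69763306, values of 0.17, 1.21 and 1.65 became 2.07, 3.35 and 3.51, a difference of 1.96 ± 0.15. On chromosome 19 from 10079853 to 10080806, values of 0.51, 1.05 and 2.12 became 2.42, 3.29 and 3.92, a difference of 1.98 ± 0.23. In each of these 3 regions the untreated probes differed widely among themselves, yet the lowest adriamycin probe was above the highest untreated one.

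On chromosome 2 from 164548486 to 164549582, the untreated probes lay at 1.07, 1.30 and 0.64 and those with adriamycin at 3.57, 3.57 and 2.12. On chromosome 14 from 29653006 to 29653807 they lay at 0.71, 1.25 and 1.09, and at 2.52, 3.11 and 3.66. Both regions sat at the untreated limit of the rule, with means of 1.00 and 1.01, and both differed by 2.08 (4.23-fold). The region on chromosome 6 from 54965240 to 54966789 started higher, at 1.45, 2.95 and 2.46, and reached 3.01, 5.63 and 4.30, a difference of 2.03. Its middle probe had an IP signal of 9764 untreated and 90619 with adriamycin, while its input went from 1401 to 2005.

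The last 3 of the 12 largest differences were on chromosomes 1 and 7. On chromosome 1 from 164819626 to 164821024, values of 0.95, 2.44 and 1.09 became 2.52, 4.43 and 3.37 (difference 1.95). On chromosome 7 from 30460315 to 30461594, values of 0.76, 0.98 and 2.01 became 2.31, 3.23 and 4.0 (difference 1.93). On chromosome 1 from 136963619 to 136964694, values of 1.29, 1.57 and 1.79 became 3.36, 3.58 and 3.48 (difference 1.93). This last window had the most even probes of the 12, with SDs of 0.25 untreated and 0.11 with adriamycin. Around it the run of neighbouring probes at 1 or more grew from 4 probes untreated to 12 with adriamycin.

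**Figure D2:**
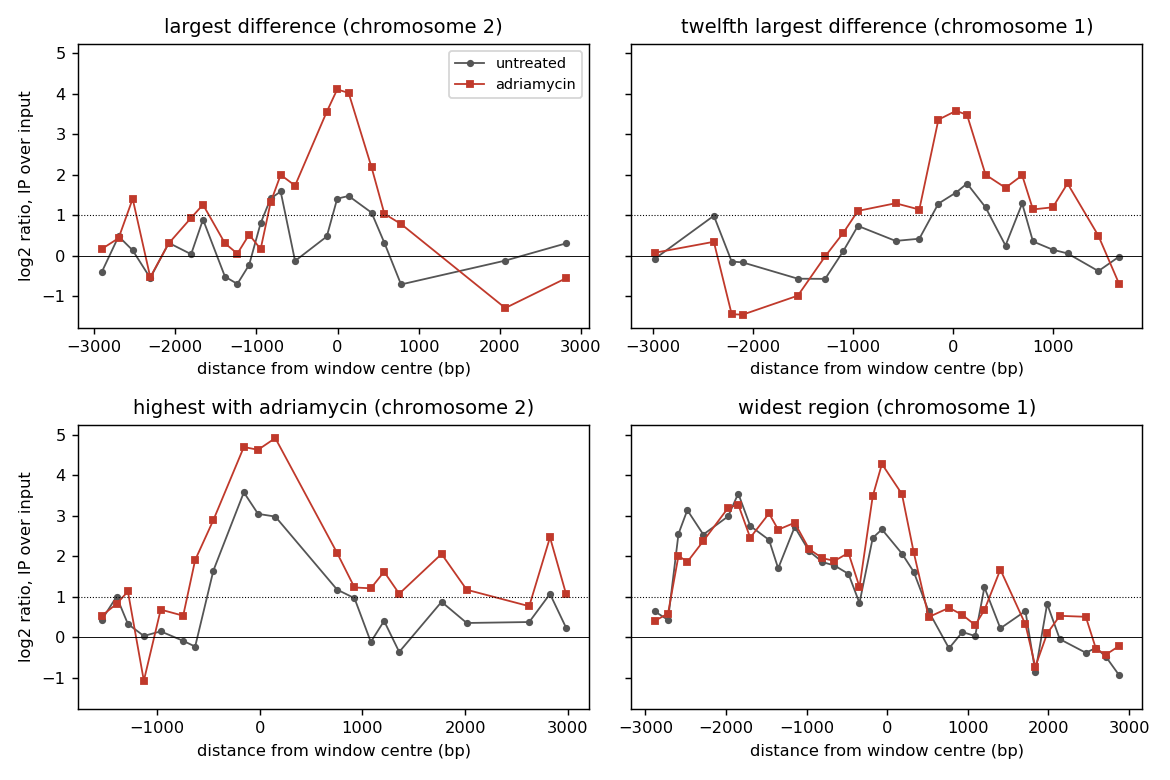
Log2 ratio of IP over input at each probe (y axis) against distance in bp from the centre of the best window (x axis) in 4 strengthened regions, untreated in grey and adriamycin in red, 1 point per probe and array; the dotted line marks a log2 ratio of 1. In the first 3 regions the adriamycin line stands above the untreated one over the peak, and in the widest region over the peak at the centre and at some probes away from it.

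A few strengthened regions were strong sites before damage. The highest with adriamycin, on chromosome 2 from 165845020 to 165846626, had 3.58, 3.04 and 2.98 untreated and 4.69, 4.63 and 4.91 with adriamycin, a difference of 1.55 (2.92-fold). The probe with the smallest rise there was also the highest untreated one. The highest untreated region, on chromosome 7 from 99700077 to 99700827, had 3.75, 3.86 and 2.88, and then 3.86, 5.12 and 4.58. Its first probe barely differed, and the mean difference of 1.02 had an SD of 0.82. On chromosome 5 from 122634116 to 122634940, values of 2.78, 3.57 and 2.32 became 3.90, 5.11 and 4.21, a difference of 1.52. On chromosome 5 from 35840775 to 35842563, values of 1.26, 2.61 and 3.12 became 3.01, 4.48 and 5.00, a difference of 1.83 ± 0.08. In that window both arrays ordered the probes the same way.

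The other strong basal sites rose by little more than the limit. On chromosome 7 from 44842300 to 44843108 the mean went from 3.12 to 4.29, with a difference of 1.18 and an SD of only 0.02 over the probes. On chromosome 5 from 93037039 to 93038007 it went from 3.08 to 4.20, but the IP signal alone rose by 0.36 and the input signal fell by 0.77. On chromosome 7 from 136732824 to 136733627 it went from 2.99 to 4.09, and on chromosome 5 from 114351679 to 114352606 from 3.05 to 4.05. The IP signal alone rose by 0.85 and 0.94 in these 2 regions. Only 67 of the 335 regions were at 2 or more untreated and 10 at 4 or more with adriamycin.

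In most of the regions the rise lay in the IP channel. The IP signal, relative to the median of its array, was higher with adriamycin in all 335 best windows, by 0.31 to 3.77 on the log2 scale with a median of 1.47. It was higher by at least 1 in 284 of them, against 895 of all 2543 regions (35.2%). Since the rule used the ratio, these values are a description. The input signal differed by a median of 0.19 (interquartile range -0.12 to 0.58). Over all 2543 regions it differed by nearly as much, 0.15 (-0.15 to 0.50). Input was higher with adriamycin in 223 of the 335 regions, lower by at least 0.5 in 13 and lower by at least 1 in none. Of all 2543 regions, 8 (0.315%) had an input lower by at least 1. The median IP change was 1.42 on design 1 and 1.53 on design 2.

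**Figure D3:**
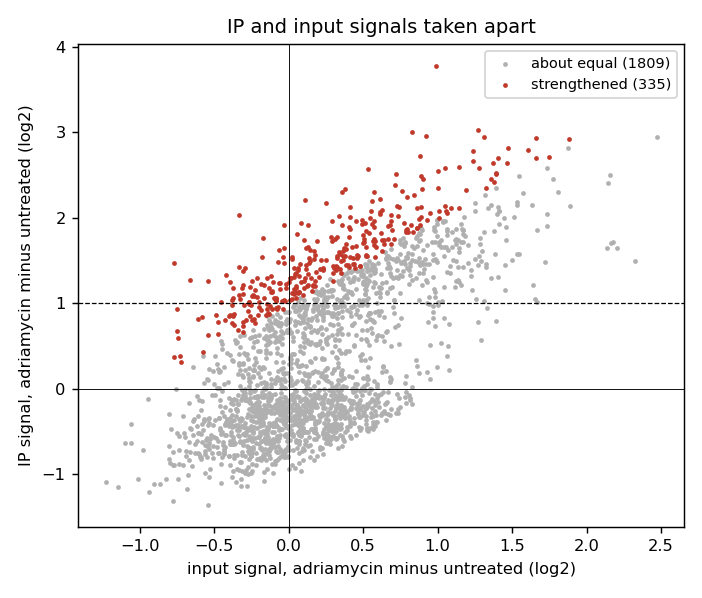
Change of the input signal (x axis) and of the IP signal (y axis), adriamycin minus untreated, each relative to its array median on the log2 scale, at the best window of the 335 strengthened regions (red) and the 1809 regions that were about equal (grey); the dashed line marks an IP change of 1. All red points lie above an IP change of 0, and 284 of them at 1 or more.

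Strengthened regions had a median width of 804 bp (interquartile range 650 to 1007) with a median of 5 probes, and 249 of the 335 (74.3%) were at most 1000 bp wide, against 1394 of all 2543 (54.8%). Of the regions at 1 or more untreated, the share that was strengthened was 27 of 276 (9.78%) up to 500 bp, 222 of 820 (27.1%) over 500 and up to 1000 bp, and 72 of 394 (18.3%) up to 1500 bp. It was 11 of 198 (5.56%) up to 2000 bp, 2 of 220 (0.909%) up to 3000 bp and 1 of 313 (0.319%) above 3000 bp. The 1809 regions with at least 1 untreated and a difference between -1 and 1, here called about equal, had a median width of 1092 bp. This contrast turned among regions under 2 untreated, whose basal levels still differed (medians 1.61 about equal and 1.34 strengthened). Under 2 untreated, the 478 about equal regions had a median width of 607 bp and the 268 strengthened ones 755 bp. Of these, 90.4% against 79.9% were at most 1000 bp wide. Width was taken from the adriamycin array, where the rule places the strengthened ones higher (medians 2.69 against 2.11). The order of these widths is thus partly built in. The 302 gained regions, which met the same limit on the difference from under 1 untreated, had a median width of 547 bp. With 1 array per condition these contrasts between sets of regions have no test.

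The untreated signal on either side of the peak was lower at strengthened than at about equal regions. At strengthened sites the untreated log2 ratio fell from a median of 1.77 within 100 bp of the window's centre to 0.44 at 250 to 500 bp, 0.15 at 500 to 750 bp and 0.09 at 750 to 1000 bp. At the same distances the gained sites had 0.75, 0.17, 0.01 and 0.02. The about equal regions had 2.73, 1.74, 1.44 and 1.21. The gap was smaller under 2 untreated, where basal levels were closer but not matched (medians 1.61 about equal and 1.34 strengthened). There the about equal regions had 0.44 at 500 to 750 bp and 0.33 at 750 to 1000 bp, and the strengthened ones 0.12 and 0.09. With adriamycin these 2 sets were alike at 500 to 750 bp, at 0.68 and 0.66.

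With adriamycin the strengthened sites were taller, which the rule asked for, and their shoulders were higher too. The adriamycin medians were 3.28 within 100 bp, 1.31 at 250 to 500 bp, 0.72 at 500 to 750 bp and 0.41 at 750 to 1000 bp. Probes outside the region itself did not enter the limits on the best window, but the adriamycin threshold set where the region ended. Over these probes, the median difference per region was 0.53 at 500 to 750 bp over 278 regions. It was 0.39 at 750 to 1000 bp and 0.26 at 1000 to 1500 bp. It was 0.05 at 2000 to 3000 bp, where 53.7% of regions were higher with adriamycin. Higher shoulders were not particular to strengthened regions. Gained regions had 0.41, 0.32, 0.23 and 0.06 over such probes at the same distances. At 500 to 750 bp, about equal regions under 2 untreated had 0.24, and strengthened ones under 2 had 0.52. These probes lie on the same arrays and some of the same DNA fragments as the best window, so they are no replicate. The run of neighbouring probes at 1 or more had a median of 2 probes untreated and 5 with adriamycin, and was longer with adriamycin in 295 regions (88.1%), equal in 33 and shorter in 7. It was longer in 64.4% of all regions, in 97.4% of gained regions and in 72.2% of about equal regions under 2 untreated.

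Inside the called region, the highest probe was often the same in both arrays. It was sought only there, so a shift out of the region could not be seen. In 210 of the 335 regions (62.7%) the same probe was the highest of the region in both arrays, and the distance between both highest probes had an upper quartile of 148 bp, less than the spacing of many probes. Among all about equal regions, which hold more probes, the share was 48.1%, but under 2 untreated it was 62.1% of about equal and 59.7% of strengthened regions.

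**Figure D4:**
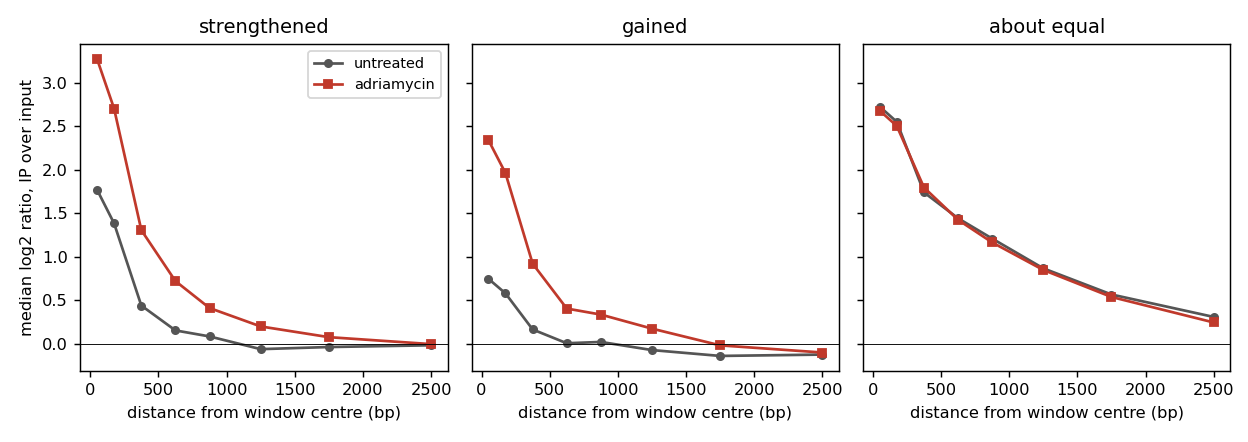
Median log2 ratio of IP over input (y axis) by distance of the probe from the centre of the best window in bp (x axis; points at the middle of each distance class), for the 335 strengthened, 302 gained and 1809 about equal regions, untreated in grey and adriamycin in red. Strengthened peaks fall to an untreated median of 0.15 at 500 to 750 bp, while about equal regions are still at 1.44 there.

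To describe this per region, the flank was taken as the mean of the probes 500 to 1000 bp from the centre of the best window, a measure chosen after the profiles were seen. Of 346 regions at 1 or more untreated whose untreated flank was below 0, 136 (39.3%) were strengthened. With a flank of 0 to 0.5 it was 133 of 387 (34.4%), with 0.5 to 1 it was 45 of 295 (15.3%), with 1 to 1.5 it was 13 of 306 (4.25%), and with 1.5 or more it was 2 of 865 (0.231%). The median difference over all regions of each class went from 0.91 to 0.82, 0.49, -0.06 and -0.43. Raised flanks came with higher untreated values, which the rule uses. Among regions between 1 and 2 untreated alone, the shares were 113 of 258 (43.8%), 104 of 233 (44.6%), 33 of 129 (25.6%), 11 of 84 (13.1%) and 1 of 30 (3.33%). The untreated median still climbed across these classes, from 1.43 and 1.46 to 1.56, 1.77 and 1.87, so basal level and flank were not separated.

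Within the strengthened regions, the flank rose in 280 of the 329 that had flank probes, by a median of 0.47. It was at 1 or more in 15 regions untreated and in 60 with adriamycin. At 500 to 750 bp the signal was higher with adriamycin in 86.9% of strengthened, 74.7% of gained and 49.8% of about equal regions. Among about equal regions under 2 untreated the share was 66.4%. In strengthened regions the step from flank to peak had a median of 1.43 untreated and 2.28 with adriamycin, and grew in 312 regions. The rule asked the best window to rise by at least 1, so the growth of this step is largely built in. The about equal regions had a like untreated step, 1.18, on a flank of 1.35, and their step with adriamycin was 1.09. Growing steps were also found outside the strengthened regions. In about equal regions under 2 untreated the step went from 1.17, on a flank of 0.35, to 1.61, and in gained regions from 0.64 to 1.75.

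**Figure D5:**
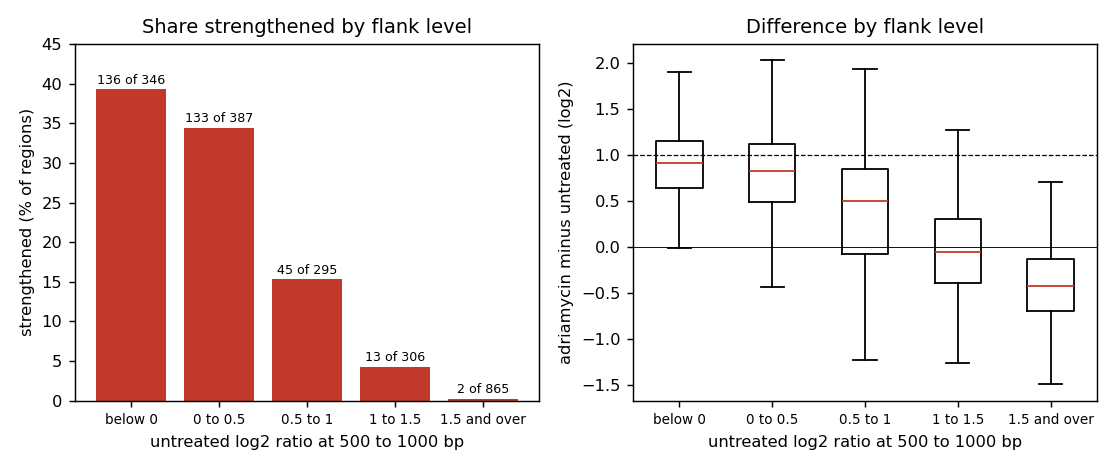
Regions at 1 or more untreated, by the untreated log2 ratio 500 to 1000 bp from the centre of the best window (x axis of both panels); left, the percentage that was strengthened with the counts above the bars; right, adriamycin minus untreated on the log2 scale, boxes from the lower to the upper quartile with the median in red and whiskers to at most 1.5 box lengths. The share goes from 39.3% with flanks below 0 to 0.231% with flanks of 1.5 or more.

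The widest strengthened region lay on chromosome 1, from 188404427 to 188407587, and held 19 probes over 3161 bp. The 14 probes before the best window had a mean of 2.32 ± 0.72 (SD over probes) untreated and 2.36 ± 0.59 with adriamycin. The best window next to them had 2.45, 2.66 and 2.06 untreated and 3.48, 4.28 and 3.54 with adriamycin. The mean of the broad part differed by less than the spread of its probes, and the narrow peak at its edge was higher by 1.37 ± 0.30.

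The other wide regions were of several kinds. On chromosome 2 from 126364507 to 126367177, the window rose from 2.03 to 3.14, and the mean over all 12 probes of the region rose by more, 1.54. On chromosome 4 from 99148017 to 99150590 it went from 1.92 to 2.94, of which only 0.31 lay in the IP signal and the rest in an input lower by 0.72. On chromosome 3 from 137560128 to 137561928, values of 2.67, 2.86 and 2.81 became 4.05, 3.63 and 3.90. On chromosome 15 from 102152483 to 102154189, values of 1.54, 1.62 and 1.15 became 2.76, 3.58 and 2.62. In these last 2 windows the lowest adriamycin probe was above the highest untreated one.

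Strengthened regions lay on all 20 chromosomes with regions called. Their share of the regions called with adriamycin was highest on chromosomes 17 (21 of 105), 4 (27 of 140, 19.3%) and 19 (19 of 101, 18.8%). It was lowest on chromosomes 18 (4 of 92, 4.35%), 13 (5 of 94, 5.32%) and 12 (6 of 105, 5.71%). On chromosome X it was 9 of 77 (11.7%). These counts are small and were not tested. They fell in 330 of the 16399 tiled stretches of the arrays, and in 295 of these the strengthened region was the only region called. In tiles of 7000 to 8500 bp, the best windows lay a median of 1912 bp from the middle of the tile, close to the 1893 bp of all windows in such tiles.

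Probes vary in length, and on arrays of this kind shorter probes usually hold more G and C. Best windows of the strengthened regions had a median mean probe length of 50.7 bases, against 49 at about equal regions, 51 at gained regions and 55 over all windows. In 39.1% of strengthened regions the mean was below 50 bases, against 54.3% of about equal regions and 21.3% of all windows. Correcting the ratios for probe length and input brightness lowered the median difference to 1.04. The part of base composition in the rises was not tested.

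How many regions count as strengthened depended on the processing. The sign of the difference hardly changed in the settings run. That is no check, since the windows were chosen by a difference of at least 1 on the same arrays. Over the same 335 windows, a loess correction of the ratio for brightness within each array gave a median difference of 0.84, and 92 windows kept 1 or more. With normexp background correction, all 163 windows of design 2 kept 1 or more but only 17 of the 172 on design 1. The whole rule applied to normexp values found only 22 of the 335 regions again, and applied to loess values 55. The authors' deposited table of log2 ratios, where it had values for all 3 probes, kept 301 of 329. The difference was above 0 in all windows with a value in 9 of these 10 settings, and in 334 of 335 with normexp.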

How the data were processed

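p53 ChIP-chip in R1E cells was measured on 4 Agilent 2-colour promoter arrays, 1 per condition and design. Per the file headers, the authors processed scans with Agilent Feature Extraction 10.1.1.1. The deposited signals used are processed intensities, after local background subtraction and linear dye scaling. The deposited files also hold a log10 ratio, read only as a check. A value table deposited by the authors gives log2 ratios that equalled, within 1e-06, those from background-subtracted spot medians in every filled value. Controls, unplaced probes and spots marked as non-uniform or population outliers in either array were left out. Ratios were computed with Python 3.11.15, numpy and pandas, and centred on each array's median. Loess and normexp (offset 50) used limma 3.58.1 in R 4.3.3. Tiles are probes less than 2000 bp apart. The rule was also run on simulated arrays with planted sites and independent normal noise. These lack the shoulders of real peaks, so that run does not show how the rule performs on these data.

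Named regions were, among the 335 without dim or saturated spots in the best window, the 12 largest differences, 8 highest adriamycin, 6 highest untreated and 6 widest, plus 3 on each side of each limit. Regions and lists were chosen with earlier results of these data known. Gene lists, motifs and gene distances were not analysed here for want of gene names and sequence of the files' build. The number of arrays limits the precision.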

Additional observations from a re-analysis of the deposited data

How the results depend on the processing

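No paired analysis was possible because 1 array stood for each condition. All 25 named regions stayed above 0 in the 10 settings that recompute the values (23 had one in the deposited table), but fewer kept the limit of 1, with 14 under normexp, 16 under loess, 17 in the deposited table and 18 by the IP signal alone. The median difference over the same windows ran from 0.84 (loess) to 1.58 (equal spread). Counts within 1.5 times of 335 strengthened regions were found in 11 of 24 settings. The mean over all probes of the region, the IP signal alone and the best window from all windows were chosen after seeing the data. Loess gave 62 strengthened (55 among the 335) and 111 gained regions. Normexp gave 137 strengthened (6 on design 1 and 131 on design 2, of which 22 were among the 335) and 641 about equal regions, with a median IP change of 0.91, and without spots of extreme local background 169, 165 gained and 897. The equal spread gave 637 strengthened and 497 gained, a common input 522 and 543. Correcting for probe length and input brightness gave 207 strengthened. The IP signal alone gave 1207 strengthened and 12426 about equal regions. Windows of 5 probes gave 130 strengthened and 150 gained. Adriamycin thresholds of 2 and 1.5 gave 177 and 522 gained. Untreated thresholds of 1.5 and 0.5 gave 160 and 555 strengthened, and 477 and 82 gained. A difference of 1.5 gave 62 strengthened, 145 gained and a median IP change of 1.96, and one of 0.5 gave 811 strengthened and 955 about equal. All 3 adriamycin probes at 1.8 left 101 gained, and the region mean 158 strengthened. Stricter limits leave fewer regions by construction; otherwise the cause was not tested. Motif and gene distance alternatives were not run.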

Other observations

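In 5 tiles 2 separate strengthened regions were found. The closest pair lay on chromosome 14, from 33136692 to 33137643 and from 33139347 to 33140053, with 1703 bp between them. The first went from 2.21 ± 0.26 (SD over 3 probes) to 3.45 ± 0.28 and the second from 1.32 ± 0.23 to 2.43 ± 0.38. On chromosome 10, regions from 79539599 to 79540674 and from 79547266 to 79547902 went from 1.55 to 2.73 and from 1.8 to 3.26. The other pairs were 13370 to 22008 bp apart, on chromosomes 7, 8 and 17. In 23 of the 330 tiles with a strengthened region there was also an about equal region, and in 6 a gained one. These values have no replicate.

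In 10 of the 335 regions not all 3 probes of the best window were higher with adriamycin. The region on chromosome 4 from 9573561, chosen after its values were seen, had a difference of 1.16 with an SD of 1.63 over its probes.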
